A study of Mus musculus with 11 samples.

Results

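Transcripts were compared in Tet1, Tet2 and Tet3 triple knockout (TKO) mouse embryonic stem cells (ESCs) before and after 4 h of transcription block with α-amanitin. Each time point was represented by 2 ribodepleted total RNA libraries, so the changes were measured in 4 of the 11 libraries of the series. The 4 h cells received 10 µg/ml α-amanitin. The 0 h cells are labelled as without treatment, although the protocol names water as the control, so whether they received water is unclear. Both groups lack the 3 Tet dioxygenases, which oxidise 5-methylcytosine, and were kept on gelatin in serum with leukaemia inhibitory factor. WT ESCs at 0 h and 4 h (2 libraries each) entered the same fit, so the spread behind the p-values comes from the WT libraries too. The study describes the experiment as done in biological duplicate. Whether the duplicates were separate cultures of 1 clone or separate clones is not given in the sources used here, so the p-values measure the spread between these libraries. Members were the genes with a mean above 1 TPM (abundance corrected for gene length and library total) in the 4 TKO libraries, which were 12634 of the 23284 genes listed.

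α-Amanitin binds RNA polymerase II and stops messenger RNA synthesis. RNA polymerase III is less sensitive and RNA polymerase I is insensitive. The toxin enters cells slowly, and once synthesis stops, each transcript declines at the rate of its own decay. Immediate-early and signal feedback mRNAs are known for fast decay, often through AU-rich elements in the 3′ UTR that recruit deadenylases. Spliced noncoding host genes of small nucleolar RNAs (snoRNAs) are commonly degraded by nonsense-mediated decay, whereas mRNAs of metabolism and of the ribosome are long-lived. TPM values are shares of a library, so a fall common to all transcripts cannot be seen in them, and a stable transcript gains share as others are lost. A positive change is thus a larger share of the RNA, which can arise without synthesis. For the same reason, fewer cells of a type and less RNA per cell cannot be told apart in bulk RNA.

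The 4 TKO libraries held between 24722008 and 28974510 recovered reads. Values are given as scaled TPM, which are deposited TPM divided by a size factor, and changes as log2(scaled TPM + 1) at 4 h minus 0 h, a scale that understates the change of low genes. The pluripotency markers were present (10 of 10 above 1 TPM, with summed TPM between 4705 and 4838). A strict set of 8 fibroblast feeder markers (Col1a1, Col1a2, Col3a1, Thy1, Postn, Dcn, Lum and Pdgfrb) summed to between 13.2 and 15.1 TPM. A strict set of 8 primitive endoderm markers (Gata4, Gata6, Sox17, Sox7, Foxa2, Dab2, Afp and Ttr) summed to between 3.66 and 4.88 TPM. Strict trophectoderm and neural sets, led by Krt7 and Tubb3, summed to between 33.3 and 39.9 and between 172.7 and 181.6 TPM. A mesoderm set summed to between 4.99 and 6.38. The lists described further on hold broader genes such as Fn1, Sparc and Krt18, which WT ESCs also expressed, and most reach higher sums. At 0 h Krt18 (445.8 and 448.8 scaled TPM, 60.5 and 79.3 in WT), Krt7 (28.5 and 31.5, 1.67 and 2.74 in WT) and Sparc (251.3 and 262.0, 118.1 and 133.0 in WT) lay above WT. Fn1 lay below WT (110.4 and 110.3, 138.7 and 123.0 in WT). Tet1 lay between 21.6 and 29.999 scaled TPM in the TKO libraries and between 118.6 and 144.1 in WT, and Tet2 between 5.998 and 7.69 against 44.7 to 55.8. Tet3 was low in every library (1.17 to 1.503), and its level did not separate the genotypes.

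The 2 libraries at 4 h differed in how far they had moved. Against the mean of both 0 h libraries, the SD of the change over genes was 0.16 in 4 h library 1 and 0.24 in 4 h library 2. In library 1, 74 genes lay more than 1.5-fold below 0 h and 31 lay more than 1.5-fold above, compared with 195 and 28 in library 2. Of the 3262 genes whose 4 h libraries both lay below both 0 h libraries (25.8% of those tested), library 2 was the further in 2557 (78.4%). Of the 4123 genes whose 4 h libraries both lay above (32.6%), library 2 was the further in 3218 (78.05%). With the libraries paired by number, so that no library was shared, the changes of the pairs correlated across the 12634 genes at r = 0.40 and ρ = 0.48. Genes are not independent replicates, and no p-value is attached. List medians are therefore given over both 4 h libraries and, in parentheses or beside them, for library 1 and library 2. Counts of list members below or above in both 4 h libraries are to be read beside the 25.8% and 32.6% of all genes.

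**Figure D1:**
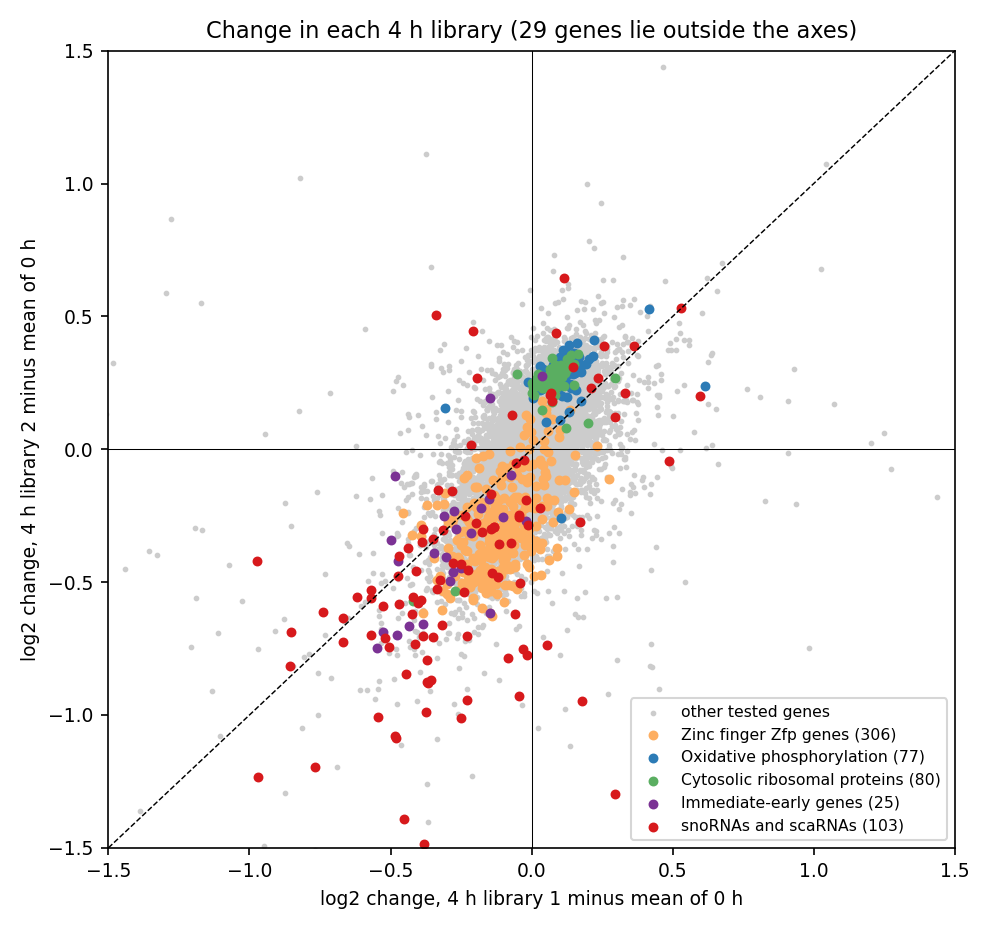
Change of each tested gene in 4 h library 1 (horizontal axis) and in 4 h library 2 (vertical axis), each as log2(scaled TPM + 1) minus the mean of both 0 h libraries, with 5 gene classes in colour and the dashed line marking equal change. Most zinc finger and snoRNA points lie below the dashed line on the negative side, and most ribosomal protein and oxidative phosphorylation points lie above it on the positive side; 29 genes lie outside the axes.

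In limma with Benjamini-Hochberg adjustment, 20 genes fell (adjusted p under 0.05 and more than 1.5-fold, 0.158% of 12634) and 0 rose (0.0%). By adjusted p alone, 33 genes were lower (0.261%) and none was higher. At an unadjusted p under 0.05, 1399 genes were lower (11.1%) and 1722 were higher (13.6%), and limma voom on recovered reads, an alternative, gave 47 lower and 4 higher past 1.5-fold. The adjusted p-values of the 20 lay between 0.003 and 0.049, close to the threshold for all but 1. The calls depended on the libraries, including those of WT cells, which share the estimate of the spread. From the 4 TKO libraries alone, 9 genes were called lower, 5 of them among the 20, and 1 higher. Without 4 h library 1, 134 genes were called lower and 12 higher, and without 4 h library 2, 1 was called lower and 2 higher. Without 0 h library 1 the count was 1 lower, and without 0 h library 2 it was 0. With 2 libraries against 2, an exact permutation test of a single gene cannot go below p = 0.33.

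By size alone, 111 genes had a mean more than 1.5-fold lower (0.879%), and in 90 of them the libraries did not overlap. Of the 111, 64 were microRNA features, 25 snoRNA features, 2 snoRNA host genes, 3 immediate-early genes, 2 targets of the YAP and TEAD regulators and 1 a histone gene. Another 14 belonged to none of these lists. They included Edn1, the endothelin-1 precursor (3.89 and 4.10 scaled TPM at 0 h, 2.43 and 1.73 at 4 h), Foxd3, a forkhead factor of pluripotent cells (12.999 and 12.4, then 8.47 and 7.57), and Bhlhe40, a circadian repressor (20.6 and 21.7, then 15.65 and 11.97). These 3 were named after their values were seen, and none passed the adjusted test (adjusted p = 0.057, 0.099 and 0.093). More than 1.5-fold higher were 16 genes (0.127%), of which 14 had a mean under 20 recovered reads. Of the others, Rims3, a synaptic scaffold gene, lay at 6.24 and 6.02 scaled TPM at 0 h and at 10.2 and 9.77 at 4 h (log2 change 0.63, SE 0.10, adjusted p = 0.052 in limma).

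**Figure D2:**
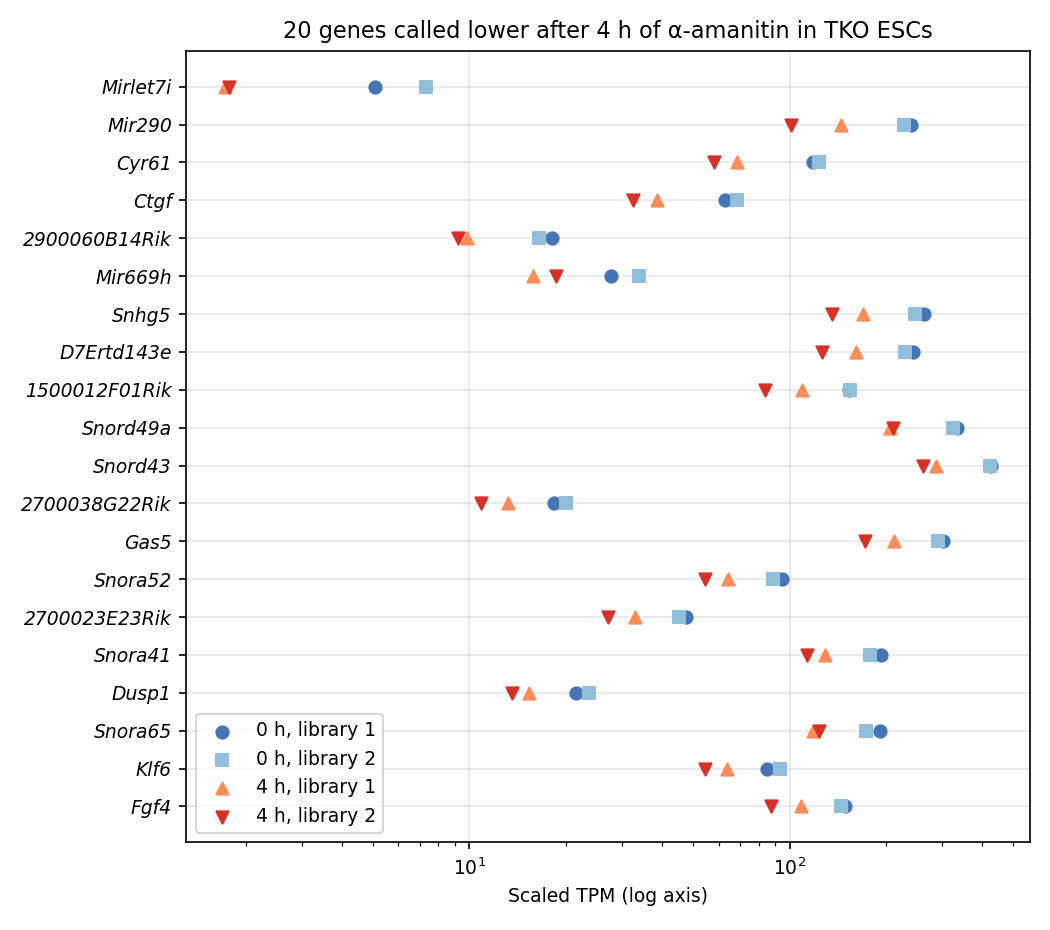
Scaled TPM (log axis) of the 20 genes that fell, with one point for each TKO library. In all 20 genes both 4 h points lie to the left of both 0 h points, and in 16 of them 4 h library 2 lies further from 0 h than library 1.

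The matricellular genes Cyr61 and Ctgf, classical targets of YAP and TEAD that answer to serum and adhesion, fell most among the protein-coding genes called. Cyr61 (chromosome 3, 145309935 to 145312949, minus strand, NCBIM37) had 117.9 and 123.9 scaled TPM at 0 h and 68.4 and 57.97 at 4 h. Ctgf (chromosome 10, 24315248 to 24318489, plus strand) had 62.98 and 68.6 at 0 h and 38.4 and 32.3 at 4 h. The groups did not overlap in either gene, and 4 h library 2 was the lower. The log2 changes were -0.93 (SE 0.12, limma adjusted p = 0.044) and -0.88 (SE 0.13, adjusted p = 0.049). Of 12 tested YAP and TEAD targets, these 2 fell, 8 had both 4 h libraries below both at 0 h and none had both above. Their median change was -0.19 (-0.17 in library 1, -0.19 in library 2), beside 0.01 for all tested genes. Lats2, Amotl1 and Amotl2, negative regulators of the same pathway, lay at -0.18, -0.12 and -0.37 without passing the test (-0.20, -0.06 and -0.29 in library 1, -0.17, -0.18 and -0.44 in library 2), and Tead1, the DNA-binding partner, lay at 0.04. These 4 were named after their values were seen.

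Among immediate-early genes, which are switched on by growth signals within minutes and encode unstable mRNAs, 2 of 25 tested members fell. Dusp1, a phosphatase that turns off MAP kinases, had 21.5 and 23.6 scaled TPM at 0 h and 15.3 and 13.6 at 4 h (log2 change -0.61, SE 0.07, limma adjusted p = 0.044). Klf6, a Krüppel-like factor, had 85.1 and 93.1 at 0 h and 63.7 and 54.4 at 4 h (-0.59, SE 0.08, adjusted p = 0.044). In both, the 4 h libraries lay below the 0 h libraries. Over the list, 23 of 25 members had both 4 h libraries below both at 0 h (92.0%, where all genes gave 25.8%), and 18 were lower at an unadjusted p under 0.05. The median change was -0.35, with -0.28 in library 1 and -0.34 in library 2. Ier3 had the lowest value of the list (12.3 and 14.3, then 8.78 and 7.51 scaled TPM, -0.65, adjusted p = 0.055). Mcl1, an anti-apoptotic gene and the most abundant member, went from 266.5 and 265.6 to 229.3 and 213.6 (-0.26, adjusted p = 0.070). Jun, Egr1 and Myc, named after their values were seen, lay at -0.55, -0.42 and -0.37 (-0.44, -0.50 and -0.28 in library 1, -0.66, -0.34 and -0.46 in library 2). Srf, the factor that drives this class, was the exception, with both 4 h libraries above 0 h (30.2 and 31.2, then 31.5 and 37.4, 0.16, adjusted p = 0.28).

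AU-rich elements were examined because Dusp1 carried them. In GENCODE vM1 its 3′ UTR of 690 bases holds 2 copies of the nonamer TTATTTATT, at bases 103 and 392. They are shown with 10 bases on each side and the nonamer in capitals, beside the single copies in Zfp36, whose product binds such elements, and in Fos.

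Dusp1 site 1: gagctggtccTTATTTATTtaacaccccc
Dusp1 site 2: gtttttacctTTATTTATTtttgtgtagg
Zfp36 site 1: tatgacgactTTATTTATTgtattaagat
Fos site 1: tgttttcaatTTATTTATTaagatggatt

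The nonamer (sense strand, overlapping matches counted) was present in the 3′ UTR of 765 of 11424 tested genes with an annotated 3′ UTR (6.70%) and of 6 of 25 immediate-early genes (24.0%), namely Dusp1, Fos, Fosl2, Maff, Srf and Zfp36. The median change of those 6 was -0.32, compared with -0.35 for the other immediate-early genes. Zfp36 itself had 10.8 and 9.92 scaled TPM at 0 h and 9.27 and 6.43 at 4 h (-0.38, SE 0.15, adjusted p = 0.18). Of the 10 genes with an annotated 3′ UTR that lay more than 1.5-fold lower, 1 (Dusp1) held the nonamer.

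Signalling pathways also induce their own inhibitors, as fast feedback. Of 23 tested feedback genes of the FGF, BMP, Nodal, WNT and cytokine pathways, none was called, while 20 had both 4 h libraries below both 0 h libraries (87.0%) and 18 were lower at an unadjusted p under 0.05. The median change was -0.29 (-0.19 in library 1, -0.38 in library 2). Dusp6, the ERK phosphatase, had 113.6 and 107.6 scaled TPM at 0 h and 82.8 and 68.4 at 4 h (-0.55, SE 0.09, limma adjusted p = 0.053). Spry4, Lefty1 and Id1, which restrain FGF signalling, restrain Nodal signalling and mediate BMP signalling, were named after their values were seen and lay at -0.54, -0.53 and -0.45 (-0.39, -0.34 and -0.38 in library 1, -0.69, -0.72 and -0.53 in library 2). Lefty2, the most abundant member, lay at -0.14 (adjusted p = 0.18). The ETS factors Etv4 and Etv5 lay above in both libraries. Etv4 had 91.1 and 92.6 scaled TPM at 0 h and 99.9 and 109.5 at 4 h (0.18, adjusted p = 0.12).

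Fgf4, the autocrine growth factor that primes ESCs for differentiation, was the only one of 19 tested ESC markers called. It had 149.0 and 144.9 scaled TPM at 0 h and 108.8 and 87.5 at 4 h (-0.59, SE 0.09, limma adjusted p = 0.049). The markers spread widely, with a median of -0.08 (-0.03 in library 1, -0.12 in library 2). In both 4 h libraries 8 were lower (42.1%) and 4 higher (21.1%), where all genes gave 25.8% and 32.6%. Sox2 had 229.2 and 219.7 scaled TPM at 0 h and 182.6 and 152.6 at 4 h (-0.42, adjusted p = 0.071). Klf2, Tbx3, Klf4 and Klf5, some of the naive-state factors in the list, lay at -0.43, -0.36, -0.31 and -0.28 (-0.32, -0.27, -0.22 and -0.09 in library 1, -0.54, -0.46, -0.41 and -0.46 in library 2). The list holds other naive-state factors that are not given here, and of all 19 markers 11 lay below 0 and 8 above. Nanog lay at 40.7 and 44.3, then 40.9 and 34.1 scaled TPM, so that its groups overlapped (-0.18, adjusted p = 0.22). Pou5f1, which encodes Oct4, lay above in both libraries, from 900.5 and 915.5 to 962.2 and 1118 (0.19, adjusted p = 0.18). Dppa5a, the most abundant marker, went from 1858 and 1803 to 1971 and 2237 (0.20, adjusted p = 0.19), and Dppa3 from 131.1 and 129.3 to 143.1 and 163.6 (0.23, adjusted p = 0.13). Marker mRNAs thus ranged from -0.59 to 0.23 within the same 4 libraries. Except for Fgf4, Dppa5a and Dppa3, these markers were named after their values were seen.

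The transcripts that the study followed for stability, Eed, Jarid2 and Dab1, moved little here. Eed, a subunit of Polycomb repressive complex 2, had 193.5 and 188.3 scaled TPM at 0 h and 195.6 and 189.5 at 4 h, with overlapping groups (0.01, SE 0.04, adjusted p = 0.88). Jarid2, a cofactor of that complex, had 145.3 and 145.8, then 150.5 and 150.0 (0.05, SE 0.06, adjusted p = 0.64). Dab1, an adaptor of Reelin signalling, had 4.23 and 4.49, then 4.22 and 3.93 (-0.08, SE 0.10, adjusted p = 0.64). In WT cells Eed, Jarid2 and Dab1 lay at 0.08, 0.15 and 0.02. The interaction called none of them (limma adjusted p = 0.75, 0.72 and 0.84). The study followed them by qPCR calibrated on ribosomal RNA, a measure unlike these shares of a library. By qPCR it reported each of them as less stable in WT than in TKO cells. Wild-type Tet2, but not a catalytic mutant, restored the loss in TKO cells. From RNA-Seq after α-amanitin the study also reported longer mRNA half-lives in TKO cells. What remains of the Tet transcripts lay below 0 h on average. Tet1 went from 29.8 and 29.999 to 27.5 and 21.6 (-0.28, SE 0.10, adjusted p = 0.16), Tet2 from 7.69 and 7.13 to 7.38 and 5.998 (-0.13, adjusted p = 0.41) and Tet3 from 1.38 and 1.503 to 1.33 and 1.18 (-0.12, adjusted p = 0.46).

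Noncoding host genes of snoRNAs are spliced, their introns release snoRNAs, and the joined exons encode no known protein. Of 12 tested Snhg and Gas5 genes, 2 fell, 5 had an adjusted p under 0.05, and 9 had both 4 h libraries below both 0 h libraries. The median change was -0.38 (-0.31 in library 1, -0.46 in library 2). Snhg5 had 263.6 and 246.7 scaled TPM at 0 h and 169.9 and 135.6 at 4 h (-0.74, SE 0.10, limma adjusted p = 0.044). Gas5 had 300.6 and 290.4 at 0 h and 212.2 and 172.2 at 4 h (-0.63, SE 0.08, adjusted p = 0.044). Snhg8, Snhg7 and Snhg3 passed the adjusted p but not the fold limit (-0.47, -0.36 and -0.28, with -0.43, -0.31 and -0.30 in library 1 and -0.51, -0.41 and -0.27 in library 2), and Snhg1, the most abundant, lay at -0.54 (529.2 and 524.6, then 403.5 and 323.1, adjusted p = 0.055). Snhg9 lay above 0 h in both libraries (22.9 and 22.3, then 29.5 and 26.3, 0.29, adjusted p = 0.14).

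Other genes called included 1500012F01Rik, which RefSeq names Zfas1 and which hosts Snord12, and 2700023E23Rik, which RefSeq names Dancr. The former had 152.8 and 154.4 scaled TPM at 0 h and 109.4 and 83.9 at 4 h (-0.68, SE 0.10, limma adjusted p = 0.049). The latter had 47.4 and 45.1, then 32.9 and 27.05 (-0.62, SE 0.08, adjusted p = 0.047). 2900060B14Rik, a RIKEN cDNA gene, had 18.05 and 16.5, then 9.79 and 9.19 (-0.80, SE 0.08, adjusted p = 0.035). 2700038G22Rik, a lincRNA in GENCODE vM1, had 18.4 and 19.998, then 13.2 and 10.9 (-0.64, SE 0.09, adjusted p = 0.049). Both libraries at 4 h lay below both at 0 h in each of these 4 genes.

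Long noncoding RNAs of nuclear bodies and imprinted loci were spread over both directions. Neat1, the scaffold of paraspeckles, had 75.7 and 74.4 scaled TPM at 0 h and 54.1 and 34.1 at 4 h (-0.79, SE 0.18, limma adjusted p = 0.10), so that library 2 lay far below library 1. Malat1, a nuclear speckle RNA that lacks a poly(A) tail, had 1510 and 1594, then 1726 and 1684 (0.14, SE 0.09, adjusted p = 0.36, or -0.04 relative to all genes under quantile normalisation). H19, an imprinted RNA, had 210.0 and 208.8, then 222.0 and 262.8 (0.20, adjusted p = 0.18). Of the 10 tested members, 6 lay below and 3 above in both libraries, and the median was -0.20 (-0.05 in library 1, -0.38 in library 2).

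The snoRNAs guide the chemical modification of ribosomal RNA (box C/D for 2′-O-methylation, box H/ACA for pseudouridylation) and are excised from introns. Of 103 tested snoRNA and scaRNA features, 5 fell, 7 had an adjusted p under 0.05, and 63 had both 4 h libraries below both at 0 h (61.2%). The median change was -0.38, with -0.24 in library 1 and -0.48 in library 2. Reads over such a feature can come from the mature snoRNA or from an unspliced host transcript, and the deposited values do not separate them. The sequences of 4 of the 5 called snoRNAs, read from NCBIM37 at their GENCODE vM1 positions, are shown 5′ to 3′, because they link each feature to its guide class. Capitals mark box C (TGATGA) and box D (CTGA) in Snord49a, and the last ACA before the 3′ end in the others. In Snora41 that ACA overlaps another ACA just upstream, and the capitals do not show which of them is the box.

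Snord49a (chr11:62416952-62417023, plus strand): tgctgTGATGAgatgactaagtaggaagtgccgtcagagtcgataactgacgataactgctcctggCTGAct
Snora41 (chr1:63225578-63225709, plus strand): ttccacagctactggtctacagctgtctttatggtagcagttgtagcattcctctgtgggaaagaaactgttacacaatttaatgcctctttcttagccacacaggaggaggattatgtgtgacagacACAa
Snora52 (chr7:148634702-148634838, plus strand): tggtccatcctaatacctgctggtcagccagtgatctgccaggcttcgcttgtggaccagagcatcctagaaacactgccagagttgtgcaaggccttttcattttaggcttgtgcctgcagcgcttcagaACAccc
Snora65 (chr2:32818811-32818940, plus strand): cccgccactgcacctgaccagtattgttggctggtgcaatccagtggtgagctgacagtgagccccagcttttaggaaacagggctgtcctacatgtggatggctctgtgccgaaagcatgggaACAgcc

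Snord49a had the smallest adjusted p of all genes. It had 332.7 and 323.6 scaled TPM at 0 h and 206.2 and 210.8 at 4 h, so both pairs of replicates lay close together (-0.65, SE 0.05, limma adjusted p = 0.003). Snord43, the fifth called snoRNA, had 427.1 and 423.8, then 286.1 and 261.4 (-0.64, SE 0.09, adjusted p = 0.049). Snora41 had 193.4 and 178.2, then 129.3 and 113.0 (-0.61, SE 0.07, adjusted p = 0.044). Snora52 had 94.7 and 88.8, then 64.3 and 54.4 (-0.62, SE 0.08, adjusted p = 0.044), and Snora65 had 192.0 and 173.0, then 118.2 and 123.5 (-0.59, SE 0.07, adjusted p = 0.044). Each of the 5 lay below 0 h in both 4 h libraries. Snora20 had the lowest value among members above 5 scaled TPM, but rests on 38 and 30 recovered reads at 0 h and 15 and 12 at 4 h (-1.10, SE 0.19, adjusted p = 0.064).

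The scaRNAs, which guide modification of spliceosomal RNAs in Cajal bodies, lay on the other side. In the fit over both libraries none of the 8 tested was below 0, 5 had both 4 h libraries above both at 0 h, and the median was 0.22 (0.12 in library 1, 0.35 in library 2). Of the 8, Scarna3a (1 and 3 recovered reads at 0 h, 1 and 3 at 4 h) and Scarna8 (17 and 10, then 10 and 14) lay below 0 in library 1 (-0.34 and -0.19) and above it in library 2 (0.51 and 0.27). Scarna9 had 127.5 and 149.9 scaled TPM at 0 h and 200.0 and 200.3 at 4 h (0.53, SE 0.09, limma adjusted p = 0.057). Scarna2, the most abundant feature of the list, had 1874 and 1763, then 1907 and 2103 (0.14, SE 0.13, adjusted p = 0.50). The medians of box C/D features (62 tested, -0.46, with -0.32 in library 1 and -0.57 in library 2) and box H/ACA features (32 tested, -0.29, with -0.26 and -0.33) were both negative. In both 4 h libraries, 39 box C/D features lay below 0 h and 2 above, and 23 box H/ACA features lay below and 1 above. Positive changes were thus not limited to scaRNAs. Those above included Snord17 (0.13, on a mean of 2886 recovered reads) and Snora74a (0.13, on 3868.5). The split by kind was made, and these 2 features were named, after the values were seen.

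Where a snoRNA lies inside a gene, both can be read in the same libraries. On the same strand, 82 features lay within exactly 1 tested gene, over 60 host genes. The 27 features within 20 ribosomal protein genes were all below 0 (median -0.37, with -0.28 in library 1 and -0.49 in library 2, 17 with non-overlapping libraries), while the 20 host genes were all above 0 (median 0.15, with 0.05 and 0.26, 15 with non-overlapping libraries). Rpl12, a protein of the large ribosomal subunit that hosts Snora65, had 3004 and 2841 scaled TPM at 0 h and 2938 and 3364 at 4 h (0.11, SE 0.10, limma adjusted p = 0.51). Rplp2, a protein of the ribosomal stalk that hosts Snora52, had 2249 and 2160, then 2236 and 2685 (0.15, adjusted p = 0.37). Eef1b2, an elongation factor that hosts Snora41, had 923.4 and 914.0, then 952.4 and 1034 (0.11, adjusted p = 0.37). In these 3 pairs the snoRNA fell and its host mRNA did not pass the test. The 12 features within 6 noncoding hosts had a median of -0.43 (-0.41 in library 1, -0.43 in library 2), and those hosts a median of -0.48 (-0.35 and -0.61). There Snord49a and Snord65 (-0.65 and -0.78) shared the host 2410006H16Rik, which itself lay at -0.38 (adjusted p = 0.069), and Snord47 (-0.61) lay in Gas5. The 43 features within the other 34 hosts, labelled protein-coding in GENCODE vM1, had a median of -0.39 (-0.25 in library 1, -0.52 in library 2), beside -0.05 for their hosts (-0.01 and -0.10). That label also covers 1500012F01Rik (-0.68), which RefSeq names Zfas1, so noncoding hosts may be among the 34. Of the hosts and features in this comparison, all but the called snoRNAs, Gas5 and 1500012F01Rik were named after their values were seen.

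**Figure D3:**
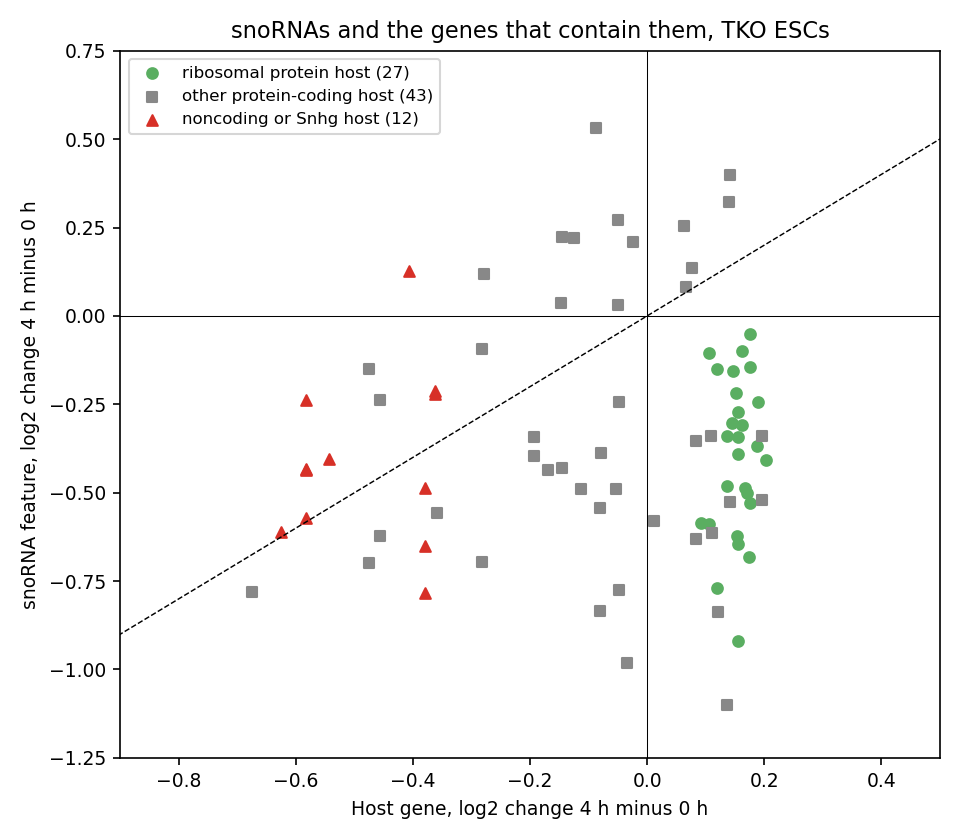
Log2 change of 82 snoRNA and scaRNA features (vertical axis) against the log2 change of the gene that contains each (horizontal axis), 4 h minus 0 h, with the dashed line marking equal change. The 27 features in ribosomal protein genes (green) lie right of 0 and below 0, and the 12 in noncoding hosts (red) lie left of 0.

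MicroRNA features gave 3 of the calls. The values count long RNA over the annotated hairpin, so they report on primary transcripts rather than on mature microRNAs. Mir290 belongs to the cluster that dominates the microRNAs of ESCs and promotes their cell cycle. It had 238.9 and 228.4 scaled TPM at 0 h and 144.3 and 101.4 at 4 h, on 322, 274, 164 and 112 recovered reads (-0.94, SE 0.14, limma adjusted p = 0.049). D7Ertd143e, a lncRNA whose RefSeq span in GRCm38.p6 contains 7 microRNA genes of the same cluster, had 243.6 and 228.6, then 161.4 and 125.8 (-0.72, SE 0.10, adjusted p = 0.044). Adjacent parts of 1 locus thus fell together, with library 2 the lower in both. Mir291a, Mir294 and Mir295, whose hairpins lie within that span, are listed at 0 in every ribodepleted library. The mature products of the cluster and of let-7i are printed from RefSeq (GRCm38.p6), since shared seeds define their target families, with bases 2 to 8 in capitals.

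miR-290a-3p: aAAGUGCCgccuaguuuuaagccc
miR-291a-3p: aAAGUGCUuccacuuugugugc
miR-294-3p: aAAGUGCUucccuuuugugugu
miR-295-3p: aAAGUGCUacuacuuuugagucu
miR-290a-5p: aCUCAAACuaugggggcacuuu
let-7i-5p: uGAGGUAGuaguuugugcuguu

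The seeds of miR-291a-3p, miR-294-3p and miR-295-3p are identical, and that of miR-290a-3p differs from them in its last base. Mirlet7i, from the family that opposes pluripotency, had the largest called change (5.07 and 7.33 scaled TPM at 0 h, 1.72 and 1.77 at 4 h, -1.37, SE 0.20, limma adjusted p = 0.049), but on 7, 9, 2 and 2 recovered reads. Counting error alone puts its ratio of 4 h to 0 h at 0.275 (exact binomial 95% interval 0.0669 to 0.853). Mir669h had 27.6 and 33.8, then 15.8 and 18.6, on 56, 61, 27 and 31 reads (-0.80, SE 0.12, adjusted p = 0.049). Recovered reads are known up to a divisor common to a gene's libraries. Across the 225 tested microRNA features the median number of reads was 6 and the median change was -0.31 (-0.20 in library 1, -0.43 in library 2). In both libraries 78 lay below (34.7%) and 16 above (7.11%), where all genes gave 25.8% and 32.6%. Among the 42 features with a mean of at least 20 reads, the median was -0.32 (-0.19 in library 1, -0.50 in library 2), with 21 below and 3 above. Mir1949, the most abundant feature, had 992.1 and 840.1, then 863.1 and 897.2 scaled TPM, with overlapping groups (-0.05, SE 0.08).

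Zinc finger genes of the Zfp series, a large family that includes many KRAB repressors of retroelements, lay mostly below 0 h. None of 306 tested members was called, but 224 had both 4 h libraries below both at 0 h (73.2%), 7 had both above, and 154 were lower at an unadjusted p under 0.05. The median change was -0.21, and this class differed between libraries, with -0.11 in library 1 and -0.30 in library 2. Zfp51 had 12.96 and 12.9 scaled TPM at 0 h and 9.67 and 8.10 at 4 h (-0.50, SE 0.08, limma adjusted p = 0.055). Zfp207, a spindle checkpoint factor and the most abundant member, had 265.1 and 264.7, then 262.1 and 245.4 (-0.06, adjusted p = 0.42). Zfp523 lay above in both libraries (6.42 and 5.995, then 6.92 and 6.98, 0.14, adjusted p = 0.29). In limma voom on recovered reads, 74 of the 306 had an adjusted p under 0.05 and all 74 were lower, where 3.94% of all genes were lower and 1.84% higher by that rule.

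Replication-dependent histone genes, whose mRNAs end in a stem-loop and decay when DNA synthesis stops, lay slightly below 0 h. Of 61 tested, 41 were below in both libraries and 5 above, with a median of -0.09 (-0.07 in library 1, -0.12 in library 2), or -0.21 relative to all genes under quantile normalisation. Hist1h1d, a linker histone, passed the adjusted p without the fold limit (422.0 and 421.9, then 336.6 and 326.0, -0.35, SE 0.05, limma adjusted p = 0.049). Hist1h4d, the most abundant, had 4388 and 4300, then 4042 and 3990 (-0.11, adjusted p = 0.38), and Hist3h2bb-ps lay above (23.3 and 19.04, then 24.2 and 26.01, 0.24, adjusted p = 0.15).

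Genes of energy metabolism, proteolysis and translation lay on the positive side, and none was called. Oxidative phosphorylation subunits gave the most uniform picture. Of 77 tested, 70 had both 4 h libraries above both at 0 h (90.9%, where all genes gave 32.6%), none had both below, and 57 were higher at an unadjusted p under 0.05. Their median change was 0.20 (0.12 in library 1, 0.29 in library 2). Atp5b, the catalytic subunit of ATP synthase, had 1853 and 1880 scaled TPM at 0 h and 1976 and 2195 at 4 h (0.16, SE 0.07, limma adjusted p = 0.21, or -0.01 relative to all genes under quantile normalisation). Cox7a1, a cytochrome c oxidase subunit, had 13.5 and 17.8, then 20.96 and 22.8 (0.47, SE 0.12, adjusted p = 0.12).

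Proteasome subunits had a median of 0.17 (0.11 in library 1, 0.23 in library 2, and 0.06 relative to all genes under quantile normalisation), and 35 of 38 lay above in both libraries. Psmb6, a catalytic core subunit, had 608.0 and 593.7 scaled TPM at 0 h and 622.6 and 733.8 at 4 h (0.17, adjusted p = 0.23), and Psma8 had 16.8 and 15.7, then 19.8 and 19.3 (0.25, SE 0.05, adjusted p = 0.092). Glycolysis genes had a median of 0.17 (0.09 in library 1, 0.27 in library 2), with 14 of 16 above in both libraries. Pkm2, pyruvate kinase, had 2037 and 2018, then 2137 and 2441 (0.17, adjusted p = 0.21), Aldoc, an aldolase, had 8.90 and 9.11, then 11.3 and 11.96 (0.34, SE 0.06, adjusted p = 0.072), and Hk2, a hexokinase, lay at -0.01.

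Cytosolic ribosomal proteins had a median of 0.16 (0.07 in library 1, 0.26 in library 2), with 66 of 80 above in both libraries and 2 below. Under quantile normalisation their median relative to all genes was 0.02 in place of 0.15. Rplp1 had 4625 and 4688 scaled TPM at 0 h and 4977 and 5703 at 4 h (0.19, SE 0.10, adjusted p = 0.26, or -0.06 relative to all genes under quantile normalisation), and Rpl38 had 1393 and 1363, then 1544 and 1765 (0.26, SE 0.08, adjusted p = 0.13). Of the 2 below, Rps27 had the lower value at -0.50 (8.99 and 11.55, then 7.37 and 6.53, adjusted p = 0.099). Its level lay far under those of Rplp1 and Rpl38 and is uncertain, since near-identical copies can split reads, which was not tested. In limma voom on recovered reads, 18 of 77 oxidative phosphorylation, 8 of 38 proteasome, 5 of 16 glycolysis and 8 of 80 ribosomal protein genes were higher by adjusted p alone and none was lower.

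**Figure D4:**
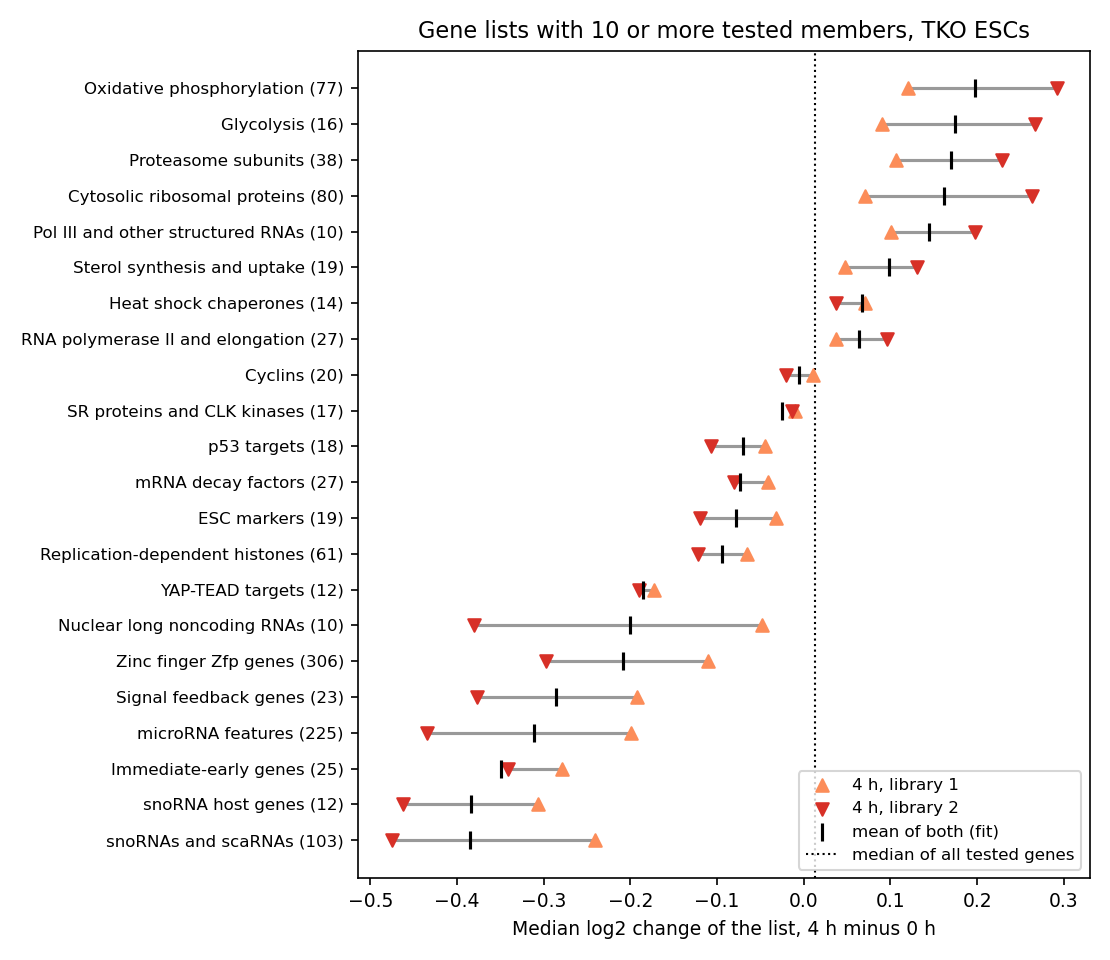
Median log2 change (4 h minus 0 h) of each gene list with at least 10 tested members, in 4 h library 1, in 4 h library 2 and in the fit over both, with the dotted line at the median of all tested genes; the number tested is in parentheses, and lists range from snoRNAs (-0.38) to oxidative phosphorylation (0.20), and library 2 lies further from 0 for most of them.

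Regulatory lists were mixed. Among RNA polymerase II subunits and elongation factors, 13 of 27 lay above (48.1%) and 4 below (14.8%) in both libraries, where all genes gave 32.6% and 25.8%. Their median was 0.06 (0.04 in library 1 and 0.10 in library 2), which turned to -0.02 relative to all genes under quantile normalisation. The subunits Polr2l (14.6 and 12.5, then 16.2 and 17.7 scaled TPM) and Polr2e (218.0 and 209.4, then 233.7 and 258.8) lay at 0.31 and 0.20. Mepce and Hexim1, which hold the elongation kinase P-TEFb inactive, lay at -0.28 and -0.19. Cyclins had a median of -0.01 (0.01 in library 1, -0.02 in library 2), with Ccnl1, a splicing-associated cyclin, at -0.38 (53.5 and 51.5, then 44.2 and 36.6), Ccnb1, the mitotic cyclin, at -0.06 and Ccnd3 at 0.22 (102.1 and 104.2, then 112.1 and 129.1). SR proteins and their CLK kinases had a median of -0.03 (-0.01 in both libraries), with Clk1 at -0.37 (84.0 and 83.5, then 72.3 and 57.5), Srsf2 at 0.03 and Srsf9 at 0.20. No member of these 3 lists was called.

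Of 18 targets of p53, 10 lay below (55.6%) and 2 above (11.1%) in both libraries, where all genes gave 25.8% and 32.6%. Their median was -0.07 (-0.04 in library 1 and -0.11 in library 2). Plk2, a polo-like kinase, had 75.3 and 75.6 scaled TPM at 0 h and 58.1 and 52.3 at 4 h (-0.45, SE 0.11, limma adjusted p = 0.11), Ccng1 was at 0.01 and Bax, a pro-apoptotic gene, at 0.11. Of 27 mRNA decay factors, 14 lay below (51.9%) and 6 above (22.2%) in both libraries (median -0.07, with -0.04 in library 1 and -0.08 in library 2). The AU-rich element binders Zfp36, Zfp36l1 and Zfp36l2 lay at -0.38, -0.31 and -0.25, and the stabilising binder Elavl1 at 0.12 (67.97 and 69.4, then 74.4 and 74.7). Cnot1, the scaffold of the main deadenylase, lay at 0.06. Heat shock chaperones had a median of 0.07 (0.07 in library 1, 0.04 in library 2), with Hspe1 at 0.24, Hsp90aa1 at 0.09 and Hspa1b at -0.15, and their median relative to all genes was -0.03 under quantile normalisation. Sterol genes had a median of 0.10 (0.05 in library 1, 0.13 in library 2), with Fdps, a synthase of the pathway, at 0.15 and Srebf2, its transcriptional regulator, at 0.17. None of these genes passed the adjusted test.

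Structured RNAs, mostly products of RNA polymerase III, served as an outside reference. Of 10 tested, 5 lay above and 2 below in both libraries, and the median was 0.14 (0.10 in library 1, 0.20 in library 2), which relative to all genes was -0.00132 under quantile normalisation. Rpph1, the RNA of ribonuclease P, had 58596 and 60286 scaled TPM at 0 h and 69636 and 78030.4 at 4 h (0.31, SE 0.23, limma adjusted p = 0.42), and Rprl3 had 4401 and 4433, then 5188 and 5792 (0.31, SE 0.10, adjusted p = 0.14). The 2 members below 0 h in both libraries, Rnu11 (114.6 and 90.3, then 66.3 and 77.2, -0.50, SE 0.11, adjusted p = 0.093) and Rnu12 (-0.37), are RNAs of the minor spliceosome and products of RNA polymerase II. In the fit over both libraries 3 of the 10 members were below 0. Whether products of the 2 polymerases moved apart was not tested. Rpph1 and Rmrp together took 12.2% of TPM in each 0 h library and 13.2% and 13.8% at 4 h. When libraries were scaled on Rmrp and Rpph1 instead, the median of all genes moved from 0.01 to -0.20 and 257 genes were called lower. Apart from the quantile results named above, no list of 10 or more members changed side of the median of all genes under another scaling.

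Markers of other lineages were few and did not move together. Of the primitive endoderm, neural, mesoderm, trophectoderm and fibroblast feeder lists, 3, 4, 4, 6 and 6 genes were tested and none was called. Their summed levels ranged over 317.6 to 396.5, 164.1 to 182.3, 7.04 to 8.22, 536.6 to 630.7 and 143.9 to 163.7 scaled TPM, with the highest sum in 4 h library 2 for all but the mesoderm list. The fibroblast list lay between 0.04 and 0.30, and its members Fn1 (110.4 and 110.3, then 113.3 and 114.3 scaled TPM) and Col1a2 (4.62 and 4.75, then 4.80 and 6.02) lay at 0.04 and 0.17. Sparc lay at 0.22 (251.3 and 262.0, then 281.2 and 318.7), Tubb3 at 0.09, Eomes at 0.07, Krt18 at 0.14, Krt7 at 0.24 and Tfap2c at -0.16. The part of cell composition in the changes was not tested.

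Transcript structure was compared over the 11424 tested protein-coding genes with a 3′ UTR in GENCODE vM1. In 4 bins of transcript length with equal numbers of genes, from under 1829 bases to over 4223 bases, the median change went from 0.10 through 0.03 and 0.00 to -0.03. In library 1 the span was from 0.05 to 0.00, and in library 2 from 0.15 to -0.06. By the number of ATTTA pentamers in the 3′ UTR, the median was 0.06 with none (4070 genes), 0.03 with 1, and -0.04 with 9 or more (660 genes). Genes holding the nonamer TTATTTATT had a median of -0.04, and those without it 0.03. Within the bin of longest 3′ UTRs (over 1836 bases) the medians were -0.05 (419 genes) and -0.01 (2437 genes). Single-exon genes (249) had a median of -0.12 and genes with 2 exons (508) -0.09, compared with 0.05 for 5 to 8 exons. Across genes, Spearman's ρ with the change was -0.31 for transcript length, -0.23 for 3′ UTR length and -0.22 for the pentamer count. Length and pentamer count are themselves linked, the points share libraries, and genes are not replicates. Ribosomal protein and oxidative phosphorylation transcripts had median lengths of 833 and 849.5 bases and median changes of 0.16 and 0.20. The shortest bin (0.10) runs up to 1829 bases and overlaps both lists, so it is not matched to them in length. The part of length in their values was not tested. Immediate-early transcripts had a median length of 2474 bases, near the middle, where the median change was between 0.03 and 0.00.

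**Figure D5:**
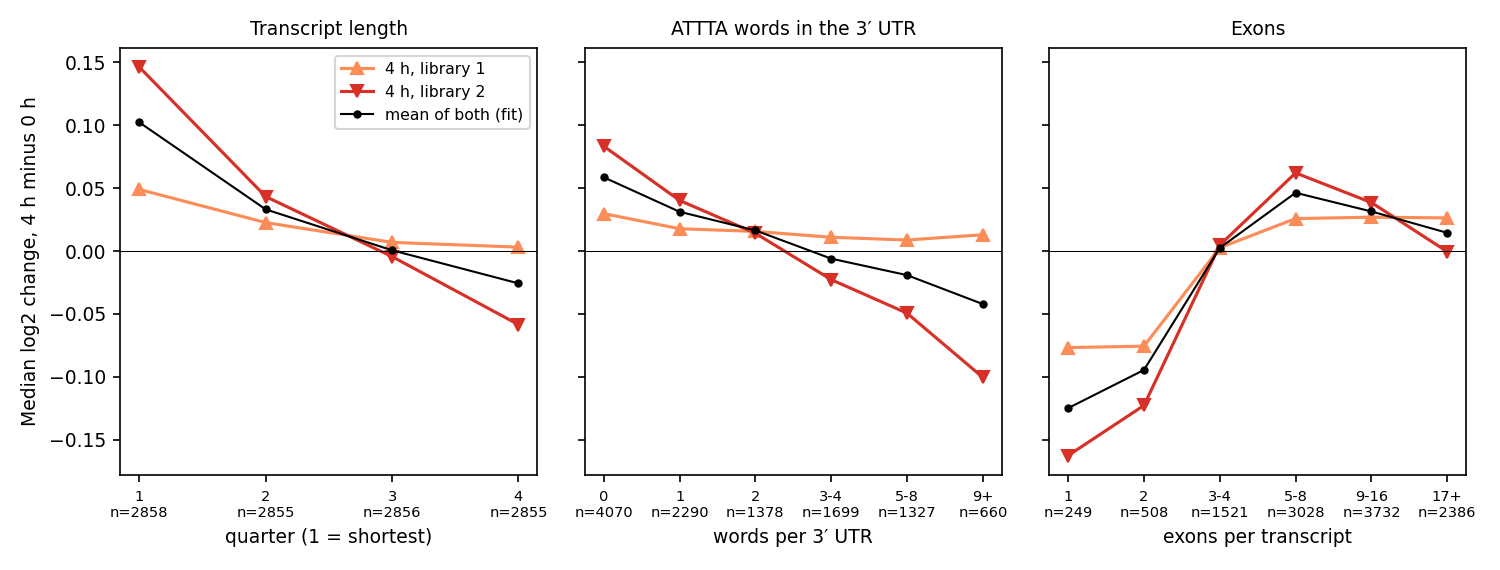
Median log2 change (4 h minus 0 h) of protein-coding genes by bin of transcript length (4 bins of equal gene number, 1 being the shortest), by number of ATTTA pentamers in the 3′ UTR and by number of exons, in each 4 h library and in the fit over both, with the number of genes under each bin. The slopes over length and pentamers are steeper in library 2, and genes with 1 or 2 exons are the lowest in both libraries.

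The same treatment in WT ESCs gave 245 genes called lower and 10 higher. Of the 20 genes that fell in TKO cells, 19 also had both WT 4 h libraries below both WT 0 h libraries, and Mirlet7i did not (0.21 in WT). The share of all tested genes with that pattern in WT is not given here, so the 19 cannot be weighed against it. The difference between genotypes was tested as an interaction, and no gene passed (smallest adjusted p = 0.52 in limma, 945 genes at an unadjusted p under 0.05, and no call by limma voom). A larger number of calls in WT is therefore not shown to be a difference in any named gene. The TKO and WT medians were -0.35 and -0.39 for immediate-early genes, -0.38 and -0.52 for snoRNA hosts, -0.38 and -0.64 for snoRNAs, and -0.21 and -0.35 for zinc finger genes. On the positive side they were 0.20 and 0.31 for oxidative phosphorylation and 0.16 and 0.28 for ribosomal proteins. Not every list had the larger median in WT. YAP and TEAD targets lay at -0.19 in TKO and -0.14 in WT, nuclear long noncoding RNAs at -0.20 and -0.18, and ESC markers at -0.08 and 0.06, on opposite sides of 0.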

How the data were processed

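The 8 ribodepleted libraries were strand-specific, paired-end total RNA. Per the study's methods, the authors filtered rRNA and tRNA reads through Bowtie2 and trimmed with Trimmomatic, then used STAR on the mm9 build and HTSeq over RefSeq genes. The deposited values are TPM, computed by the authors. The versions and HTSeq's strand setting are not given in the sources used here, so overlapping and antisense genes are uncertain. A median-of-ratios size factor per library scaled the TPM, and log2(scaled TPM + 1) was fitted in limma 3.58.1 (R 4.3.3) with a variance trend, 1 coefficient per group and one spread over the 4 groups. Calls needed a Benjamini-Hochberg adjusted p under 0.05 over the 12634 genes and more than 1.5-fold. The study used the same limits on raw counts, which the files do not hold. Whole reads were recovered from the TPM steps for 99.98% of 19470 genes (tolerance 0.01 reads), up to a divisor common to a gene's libraries, and gave the voom alternative. Intervals on reads cover counting error only. The script was checked on simulated data.

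The members and the 29 gene lists were chosen with earlier results of these data known. Named by rule were called genes, Tet genes, Eed, Jarid2 and Dab1, and per list the most abundant member and, above 5 TPM and without overlap of libraries, the largest fall and rise. One gene that the rule names is not reported here. All other genes were named after their values were seen (Rims3, Snhg3, Snhg7, Snhg8, Etv5, Hexim1, Zfp36l1, Zfp36l2, Rnu12 and the Fos family among them). Lists are described by counts and medians, without set tests. Alternatives were 3 scalings, 2 pseudocounts, 3 filters, TKO libraries alone, a replicate block, no variance trend, voom, each library left out, and, chosen after seeing the data, each WT library left out and features under 200 bases left out. Features and sequences came from GENCODE vM1 on NCBIM37 (97.2% of tested genes matched) and RefSeq. The 3 WT poly(A) libraries were not used. Replicates differed beyond counting error (chi-square over degrees of freedom 1.44 at 0 h and 6.16 at 4 h). Same-numbered libraries deviated together only weakly (correlation 0.056).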

Additional observations from a re-analysis of the deposited data

Results flagged for a closer look

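In 3 of the genes with values in the text, every TKO library at 4 h lay above the TKO libraries at 0 h while every WT library at 4 h lay below those at 0 h. The share of all tested genes with this pattern is not given here, so the count cannot be weighed against it. The TKO change minus the WT change was 0.63 for Snhg9, a host gene of a snoRNA, and 0.45 for Hist3h2bb-ps, a histone pseudogene. It was 0.93 for Mir669b, a hairpin feature that lay at 0.50 in TKO cells and -0.43 in WT cells. In TKO cells Mir669b rests on 20 and 16 recovered reads at 0 h and 29 and 18 at 4 h. Its TKO change was 0.81 in library 1 and 0.20 in library 2. The interaction in limma called none of the 3 genes (Benjamini-Hochberg adjusted p = 0.67 for each). Groups of 2 were too small for a search for single outlying libraries.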

How the results depend on the processing

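With 2 libraries a group and adjusted p-values near 0.05, the number of calls moved with most settings, while the 20 genes kept their direction wherever they were tested. Lower and higher calls (20 and 0 as reported) were 52 and 1 on deposited TPM without scaling, 32 and 2 after quantile normalisation, 257 and 1 when scaled on the RNA polymerase III products Rmrp and Rpph1, 31 and 1 above 5 TPM, 3 and 1 without a filter on low values, 9 and 1 from the TKO libraries alone, and 47 and 4 with limma voom on recovered reads. The first 3 of these settings held all 20 genes, voom held 18 and the TKO libraries alone 5. A pseudocount of 0.1 TPM gave 1 lower, one of 5 TPM gave 15 lower and 1 higher, leaving out features under 200 bases gave 17 lower and 2 higher, no fold limit gave 33 lower, and a fit without a variance trend gave 0 lower, where 1395 genes were lower at an unadjusted p under 0.05. Leaving out 1 library at a time gave 0 to 134 lower calls and 0 to 12 higher calls, and 0 to 2 lower and 0 to 8 higher calls for the interaction. Without a filter the interaction gave 2 lower and 1 higher. Why the counts moved was not tested, beyond the fewer or more libraries and genes that some settings use by construction.

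The labels number the libraries of both times alike, but nothing says that a number marks a shared culture, and only 2 pairs exist. With the replicate number as a block, 28 genes were called lower and 0 higher, of which 16 were among the 20. The deviations of same-numbered libraries correlated at 0.056 in TKO and 0.057 in WT, so the block is given as an alternative only.

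Medians of lists are given here relative to all genes. Quantile normalisation gave -0.17 for YAP and TEAD targets, -0.0225 for RNA polymerase II factors, -0.0944 for cyclins, -0.0919 for SR proteins, -0.21 for histones, 0.0176 for ribosomal proteins, 0.0608 for proteasome subunits, -0.0316 for heat shock chaperones, -0.00132 for structured RNAs and -0.0511 for Eed, Jarid2 and Dab1. Heat shock chaperones were at 0.0416 when scaled on RNA polymerase III products, at 0.0639 and 0.0407 with pseudocounts of 0.1 and 5 TPM, and at 0.0428 above 5 TPM. YAP and TEAD targets were at -0.23 and -0.12 with these pseudocounts and at -0.24 with voom. With the larger pseudocount, immediate-early genes were at -0.24, microRNA features at -0.19 and trophectoderm markers at 0.00122, the last at -0.0339 when filtered over 8 libraries. Leaving out 1 library gave -0.0579 to 0.0505 for neural markers, -0.0387 to -0.00584 for SR proteins, 0.0262 to 0.0548 for heat shock chaperones, -0.0940 to -0.0536 for decay factors, -0.0440 to 0.0296 for trophectoderm markers, -0.45 to -0.21 for microRNA features, -0.27 to -0.0866 for Tet genes and -0.38 to -0.30 for immediate-early genes.

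The sign relative to all genes turned for some genes close to 0, none of them called. Under quantile normalisation these were Jarid2 (-0.0511), Tubb3 (-0.000618), Fn1 (-0.0291), Ccng1 (-0.0819), Srsf2 (-0.12), Malat1 (-0.0357), Rplp1 (-0.0570), Atp5b (-0.0134), Hsp90aa1 (-0.0705), Cnot1 (-0.0378), Scarna2 (-0.0212) and Rpph1 (-0.0193). Ccng1 was at -0.00894 on deposited TPM, -0.0220 when scaled on RNA polymerase III products, -0.000231 with a pseudocount of 0.1 TPM, -0.00967 above 5 TPM, -0.000274 from the TKO libraries alone, -0.000678 with voom and -0.00164 without features under 200 bases. Srsf2 was at -0.00631 when scaled on RNA polymerase III products, and Eed at 0.00262 with a pseudocount of 5 TPM and 0.0077 without a filter. Leaving out 1 library gave -0.0215 to 0.0193 for Eed, -0.19 to 0.0544 for Mir1949, -0.0444 to 0.16 for Eomes, -0.0545 to 0.0567 for Ccng1, -0.00489 to 0.0398 for Srsf2 and -0.00852 to 0.16 for Tubb3.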
